A study of Mus musculus with 12 samples.

Results

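Polysome mRNA was set against total mRNA of mouse neural stem cells (NSCs) kept at a middle level of folic acid. This comparison used 4 of the 12 RNA BS-seq libraries of the study: MF replicates 1 and 2 (total mRNA) and pMF replicates 1 and 2 (polysome mRNA), chosen by the titles of the samples. All 4 came from adult NSCs of the subventricular zone of wild-type male C57BL/6 mice aged 6 to 8 weeks, which were grown in dishes with EGF and bFGF for 4 days at 10 µM folic acid. MF RNA was extracted from whole cells. pMF RNA was extracted after a sucrose gradient from the fractions of mRNAs that carry several ribosomes, which were fixed in place with cycloheximide, and both kinds of RNA went through poly(A) selection before bisulfite conversion. The cells are a culture that was expanded with growth factors and not the tissue itself. The study calls its replicates biological, and the labels do not say which libraries came from the same dish. P-values cover at most the spread between the 2 libraries of a group, and those from reads pooled over replicates leave that spread out.

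A ribosome reads an mRNA from the start to the stop of its coding sequence, and an mRNA that is translated well carries many ribosomes at once and sinks far into a sucrose gradient. m5C is cytosine with a methyl group on its ring, and in mRNA it is laid down mainly by NSUN2 at G-rich sites and by NSUN6 at CTCCA. Bisulfite makes unmethylated cytosines appear as T in the reads and leaves m5C as C. The share of C reads is therefore taken as the methylation level of a position, though cytosines that escaped conversion also count as C.

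The deposited lists held 1840615 and 2001605 cytosines without a variant base for the MF libraries and 1120299 and 1203999 for the pMF libraries, with a median coverage of 563 and 605 reads in MF and of 368 and 337 in pMF. A cytosine enters a list with a coverage of 10 or more and at least 1 methylated read, so an absent cytosine had fewer reads or no unconverted read, and the lists do not say which. In all 4 lists, 213854 cytosines were covered by 20 or more reads. Of these, 403 reached a level of 0.1 with at least 6 methylated reads in both replicates of MF or of pMF and were tested as sites. For 7956 of the 13671 genes with a listed background cytosine (level under 0.05), each of the 4 lists held 10 or more such cytosines, and their median coverage, centred on the median of the genes in each library, gave a log2 ratio of pMF to MF for the gene. In this ratio, a larger share of an mRNA on polysomes and other differences between the 2 RNA preparations cannot be told apart, nor can fewer cells that make an mRNA and less of it per cell.

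Of 16 NSC markers, 14 were tested as genes, while Sox2 and Gfap did not reach 10 background cytosines in every list. Markers of other cell types were rare in the lists: 2 of 10 neuron markers, 1 of 9 oligodendrocyte lineage markers, 1 of 8 microglia markers, 0 of 7 endothelial markers and 3 of 8 mural and fibroblast markers were tested.

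The sites were of 3 kinds: 143 nuclear isolated sites with no other site within 25 bases on the same strand, 240 nuclear clustered sites, and 20 sites on chromosome MT. The sequences around the 10 isolated sites with the largest rise in pMF, and around a pair of sites in Hnrnph1, are printed because they show where the differences lie. Each is 21 bases of the transcript strand, 5′ to 3′, as the lists give it, with the measured cytosine as the capital letter. Positions are in mm10, and all 403 sequences matched GRCm38.p6.
Zfp207: ccagcagcttCaataacaagt
Sorcs2: gagcgaggccCgggtgtctca
Thbs3: gccccgatccCtccagcagag
Agfg2: tggcggatatCgggggagacc
Ranbp9: ccgcgctccgCcgggccgcgc
Csnk2a1: gagccactatCtccagtgaac
Col4a6: tcaaaaatgtCaggggacaaa
Rela: ggtgctttcgCaggagcatta
Wdr48: cgtggacctgCaggctgccac
Ccdc107: acagctggtgCagctgacaca
Hnrnph1 upstream site: ttacggtagcCaaatgctagg
Hnrnph1 downstream site: ttatggtagcCaaatgatggg

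Isolated sites had a higher share of C reads in polysome mRNA than in total mRNA. Over the 143 isolated sites, the median level was 9.56% and 9.02% in the MF libraries and 18.2% and 17.1% in the pMF libraries. The pMF libraries lay above both MF libraries, and the means of the library medians differed by 8.37 percentage points, with an exact permutation p of 0.333, which is the smallest that 2 against 2 libraries allow. Because 90 of these sites entered through pMF alone, which favours higher levels there, the direction is better read from sites chosen without pMF. Of the 55 isolated sites that passed in both libraries of total mRNA at low folate (LF, 1.5 µM), which this comparison does not use, 27 were called higher in pMF and 0 lower. Their median level was 17.7% and 15.04% in MF and 27.6% and 24.4% in pMF. Of all 403 sites tested, 44.7% were called higher and 8.93% lower. The 27 of 55 is near that share called higher, but the share includes sites that entered through pMF alone. Of the 154 clustered sites chosen in LF, 27 were called higher and 24 lower. Of the 53 isolated sites chosen in the MF libraries alone, 25 were called higher and 0 lower by a test of pooled reads. Limma on the log odds, which uses the spread between replicates, called fewer. Adjusted over all 403 sites, limma called 11 of the 48 that also passed in pMF and 0 of the 5 that did not. Fisher's exact test of pooled reads, adjusted in the same way, called 27 and 0 of these. A site with no methylated read in a pMF library is in no list there and could not be called lower, in either choice of sites, and 28 of the 87 isolated sites called in MF were absent from a pMF list for this reason or for too few reads.

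A call rests on a two-sided Fisher's exact test of the reads pooled over the replicates, with Benjamini-Hochberg adjustment over the 403 sites. For sites chosen in LF or in MF alone, the adjustment ran over the 241 or 270 sites of that choice. By this test, 44.7% of all 403 sites were higher in pMF and 8.93% were lower. Among the isolated sites, 102 were called higher and 0 lower, of which 75 had passed through pMF only, so the count is a description and is not read against these shares. Likewise 117 of the 143, 81 of them sites that passed through pMF only, had both pMF replicates above both MF replicates, against 53.6% of all sites tested, and 1 had both below, against 17.9%. Pooled reads leave out the spread between replicates. A beta-binomial test with 1 shared overdispersion called 81 isolated sites higher and limma on the log odds called 65, with 62 called by all 3 tests, and neither called an isolated site lower. Of these 81, 65 and 62 sites, 61, 54 and 52 had passed through pMF only, so these counts are a description too. The same Fisher's test between the replicates of a group called 0 isolated sites in MF and 0 in pMF (15 and 22 at an unadjusted p under 0.05).

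Clustered sites moved in both directions. Whether the C reads of clustered or isolated sites are m5C or incomplete conversion was not tested. The study filters reads with many unconverted cytosines as incomplete conversion, which was not repeated here. Of the tested positions on the study's list, 131 were isolated sites and 2 were clustered. Of 240 clustered sites, 75 were higher in pMF and 36 lower by Fisher's test, and limma on the log odds called 33 and 10. Their library medians were 20.4% and 20.6% in MF and 22.8% and 23.4% in pMF. Of the 20 sites on chromosome MT, 3 were higher and 0 lower by Fisher's test, and limma called 0 of them. The plot of the pooled levels shows 138 of the 143 isolated sites and 133 of the 240 clustered sites above the diagonal.

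**Figure D1:**
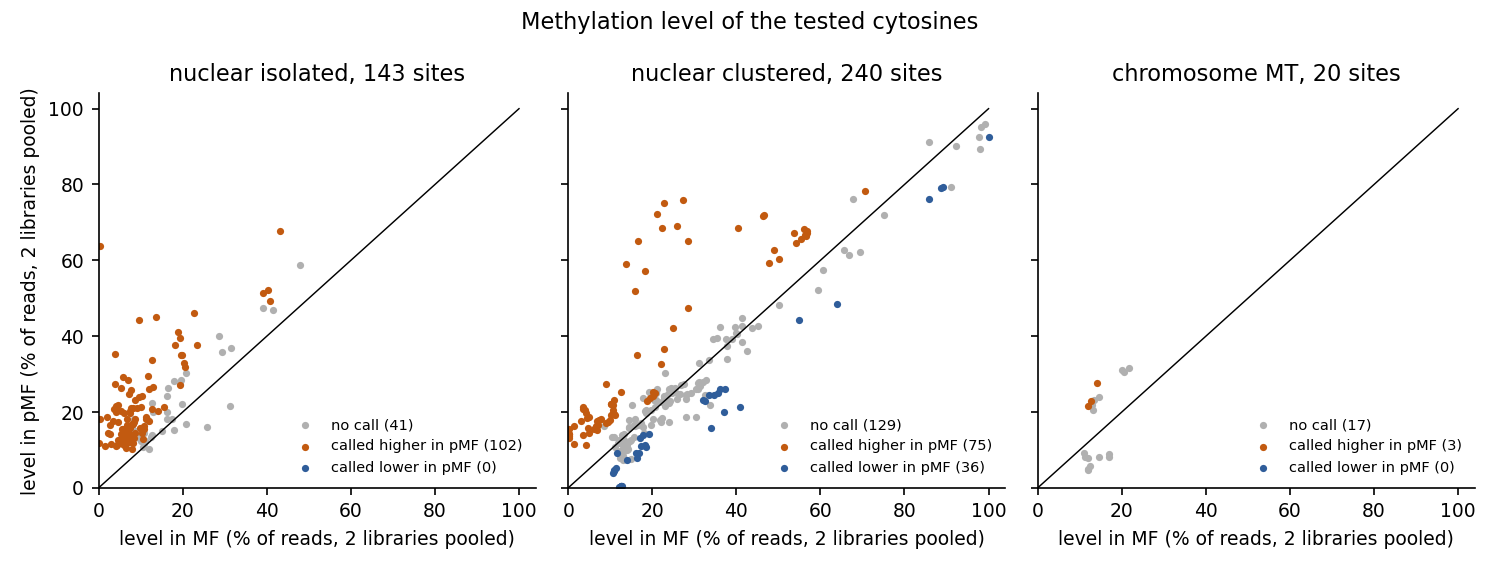
Methylation level of each tested cytosine in MF (x axis, percent of reads, 2 libraries pooled) and in pMF (y axis, same unit), for 143 isolated, 240 clustered and 20 chromosome MT sites. Points are sites, coloured by the call of Fisher's exact test, and the line marks equal levels. The 102 called isolated sites all lie above it, while 75 called clustered sites lie above and 36 called clustered sites below.

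The unconverted share at background cytosines was 0.144% and 0.139% in MF and 0.183% and 0.191% in pMF, a difference of 0.0454 percentage points (exact permutation p = 0.333). This share counts only cytosines with at least 1 unconverted read, and fewer reads per cytosine can raise it. On background cytosines that all 4 lists hold, it was 0.0926% and 0.0906% in MF and 0.124% and 0.131% in pMF (exact permutation p = 0.333). The part of depth in this difference was not tested, nor was the part of the unconverted share in the levels of single sites.

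G was frequent after the cytosine of isolated sites. A G lay at bases 2, 3 and 4 after the cytosine in 59.4%, 61.5% and 52.4% of isolated sites, against 31.3%, 28.5% and 29.3% of 210621 nuclear background cytosines in all 4 lists. Clustered sites had 39.2%, 30.4% and 43.8%. CNGGG, read from the methylated cytosine on its own strand, was present at 34 isolated sites (23.8%), at 21 of the 240 clustered sites (8.75%) and at 2.02% of the background. CTCCA was present at 8 isolated sites (5.59%), at 0 of the 240 clustered sites and at 0.798% of the background. Calls by sequence are given for the 55 sites chosen in LF, since most of the 143 sites passed through pMF alone. Over all 55, 27 were called, and small sets near that share show nothing particular to a sequence. Of these, 3 of 4 sites with CTCCA were called higher, with a median difference of 13.9 percentage points, and 7 of 16 with CNGGG, with 10.1. Of 7 sites with neither CTCCA nor 2 or more G among bases 2 to 4 after the cytosine, 4 were called higher, with a median difference of 13.99, and 0 sites of these 3 sets were called lower. Over the 8 CTCCA sites of the 143, reads were fewer in pMF, with a median of 61 and 67 against 391 and 441.5 in MF.

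By region, 71 of the 143 isolated sites lay in annotated coding sequence, 53 in 3′ UTRs and 7 in 5′ UTRs. Among the sites chosen in LF, of which 27 of 55 were called higher, 11 of 24 in coding sequence were called higher, with a median difference of 8.15 percentage points, 11 of 17 in 3′ UTRs, with 11.2, and 2 of 7 in 5′ UTRs, with 9.32. None of these was called lower, and the difference between the regions was not tested. All 22 isolated sites below 5% in MF were called higher, but each of them passed the level of 0.1 through pMF only. Of the 20 sites at 20% or more in MF, 8 were called.

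Among isolated sites, the largest rises were seen in transcripts of different functions. Zfp207 encodes a zinc finger protein of the mitotic spindle. Its site in coding sequence (chr11:80394442-80394462, + strand, cytosine at 80394452) had levels of 0.468% and 0.2% in MF and 59.1% and 65.96% in pMF, with 427 and 500 reads in MF but only 22 and 47 in pMF. The 95% Wilson interval of the lower pMF value ran from 38.7% to 76.7%, above both MF values, and covers counting error only. The site passed through pMF only and was picked for its rise, so this place above MF was favoured in advance.

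Sorcs2 encodes a sorting receptor of neurons. Its 3′ UTR site (chr5:36018118-36018138, - strand) stood at 9.56% and 9.74% in MF and at 44.5% and 44% in pMF. The replicates of each group differed by less than 1 percentage point. Thbs3, which encodes a thrombospondin of the extracellular matrix, has a CTCCA site in coding sequence (chr3:89217870-89217890, + strand). Its level was 13.4% and 13.6% in MF and 47.2% and 42.5% in pMF. Both sites were called by all 3 tests, but they were picked for their rise, so the calls are a description.

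Rela encodes the p65 subunit of NF-kB, and its 3′ UTR site (chr19:5647573-5647593, + strand) rose from 22.5% and 22.9% to 44.6% and 47.3%, with at least 555 reads in each library. Wdr48 encodes a cofactor of deubiquitinases, and its 3′ UTR site (chr9:119925417-119925437, + strand) rose from 18.4% and 19.4% to 42.5% and 40%. Ccdc107 has a coding site (chr4:43495346-43495366, + strand) that rose from 6.50% and 7.60% to 27.3% and 29.3% with 615 to 1046 reads. In each of these 3 transcripts, the replicates lay close together and the groups stood far apart.

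Other large rises had fewer reads in pMF and wider intervals. Ranbp9, a RAN-binding scaffold protein, carried the site with the highest level in MF among the 10 (5′ UTR, chr13:43481060-43481080, - strand), at 41.2% and 44.3% against 75.6% and 62.9% in pMF. The coding site of Agfg2 (chr5:137663490-137663510, - strand) rose from 4.00% and 3.81% to 46.2% and 25%, from 26 and 28 reads. The CTCCA site in the 3′ UTR of Csnk2a1, a catalytic subunit of casein kinase 2 (chr2:152280160-152280180, + strand), rose from 1.99% and 5.62% to 23.8% and 30.6%. The coding site of the collagen gene Col4a6 (chrX:141200176-141200196, - strand) rose from 5.65% and 5.96% to 37.8% and 24.4%. The replicates of pMF lay further apart at these 4 sites than at those of Rela, Wdr48 and Ccdc107. For all 10 sites, replicates that do not overlap were a condition of the choice.

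**Figure D2:**
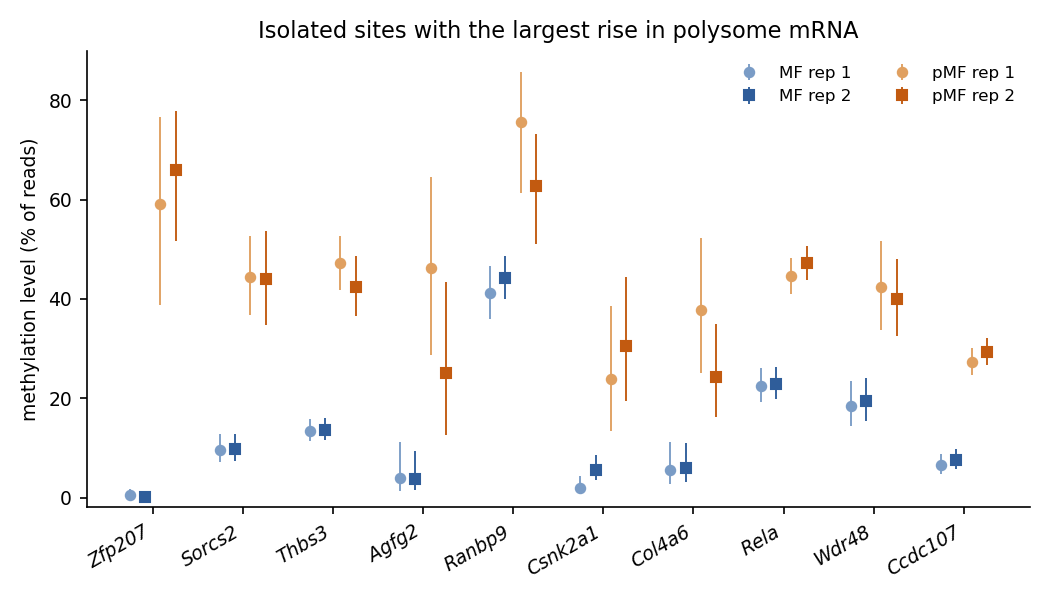
Methylation level (y axis, percent of reads) of the 10 isolated sites with the largest rise, by gene (x axis), in each of the 4 libraries. Points are levels, bars are 95% Wilson intervals of counting error, blue for MF and orange for pMF; the sites were chosen for groups that do not overlap, and the pMF intervals of Agfg2, with 26 and 28 reads, are among the widest.

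Of the transcripts that the study names for methylation and translation, 26 held 30 isolated sites that were tested. The study chose them on these samples, so their direction is no independent evidence. Of the 30 sites, 29 were called higher and 0 lower by Fisher's test, where 44.7% and 8.93% of all sites were, and limma called 18. Fscn1, which encodes an actin-bundling protein, had the deepest of them, a coding site (chr5:142961210-142961230, + strand) at 7.49% and 7.42% in MF and 19.1% and 20.6% in pMF, with at least 7152 reads in each library. Cotl1, another actin-binding protein, had a 3′ UTR site (chr8:119809694-119809714, - strand) at 9.85% and 9.26% in MF and 25.5% and 22.6% in pMF.

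Hnrnph1, a splicing factor, held a pair of isolated sites in neighbouring sequence, both of which read CAAAT from the methylated cytosine. The downstream site in coding sequence (chr11:50383886-50383906, + strand) rose from 8.02% and 8.30% to 20.7% and 21.6%. The upstream site, in an exon annotated as noncoding (chr11:50383735-50383755, + strand), rose from 4.54% and 6.07% to 16.7% and 11.4%. Glg1 also held 2 sites in its 3′ UTR, one at 25.4% and 21.8% in MF and 38.1% and 37.1% in pMF and one at 8.48% and 8.41% in MF and 17.5% and 17.4% in pMF. In Ptprn, only 1 of 2 sites was called: the coding site rose from 6.31% and 6.82% to 14.01% and 12.2%, while the 3′ UTR site had 29.4% and 11.9% in MF from 34 and 42 reads and 23.3% and 20.9% in pMF.

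The host mRNAs of isolated sites had ratios on both sides of 0, with calls near the share of all genes. The 143 sites lay in 133 genes, with 6 sites outside annotated genes of the lists. Of the 123 host genes tested, 11 were called higher in pMF, 7 lower and 105 not called, where 10.2% of all genes tested were higher and 6.45% lower, with a median log2 ratio of -0.06 against 0.06 for all genes tested. Across 127 sites, the rise in level and the log2 ratio of the host had a Pearson r of -0.22 and a Spearman rho of -0.18, given as a description, since both come from the same libraries and depths.

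Sites that could not be tested were uneven between the groups. Of the 87 isolated sites called in both MF libraries, 28 were absent from a pMF list and 6 had a coverage under 20 there. Of the 146 isolated sites called in both pMF libraries, 4 were absent from an MF list and 4 had too little coverage.

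Among the 7956 genes, 809 (10.2%) were higher in polysome mRNA and 513 (6.45%) lower by limma with an adjusted p under 0.05, and the median log2 ratio of all genes was 0.06. These counts depend on the libraries used. Without MF replicate 1 or without MF replicate 2, limma called 0 genes (1089 higher and 580 lower, and 1141 and 611, at an unadjusted p under 0.05). Without pMF replicate 1 it called 677 higher and 698 lower, and without pMF replicate 2 it called 620 and 722, so more genes were then lower than higher. Centring on the 75th percentile in place of the median gave 558 higher and 666 lower genes and moved the median log2 ratio of all genes to -0.13, and quantile normalization gave 628 and 615. With the coverage read only at background cytosines that all 4 lists hold, 874 of 2580 genes (33.9%) were higher and 1035 (40.1%) lower. Of the 809 genes called higher, 393 could be tested there, of which 373 had the same sign and 20 the opposite, and of the 513 called lower, 260 of 273 had the same sign.

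Among the gene lists, the ATF4 stress response had the highest median ratio of polysome to total mRNA. This and the other lists were chosen with earlier results of these data known, so their counts are a description and no independent evidence. ATF4 is a transcription factor whose own mRNA is translated when initiation is slowed, and its targets make amino acids and limit stress. Of 28 genes in the list, 23 were tested, and 19 were higher and 0 lower, where 10.2% and 6.45% of all genes were, with a median log2 ratio of 2.26. On shared cytosines, the median of 16 members was 1.67, with 14 higher and 1 lower, where 33.9% and 40.1% of all genes were. Ddit3, the stress transcription factor CHOP, had a median coverage of 285.5 and 550 reads in MF and of 4109 and 5913 in pMF, and its log2 ratio was 4.56 ± 0.37 (SE, 2 libraries per group). Asns, asparagine synthetase, had 87 and 159 reads in MF and 829 and 782 in pMF, a log2 ratio of 3.70 ± 0.35. Both pMF libraries exceeded both MF libraries for each of these genes, also before centring.

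Ppp1r15a, which directs removal of phosphate from the initiation factor eIF2, had a log2 ratio of 3.62 ± 0.38. The stress genes Nupr1 and Gadd45a had 3.38 ± 0.25 and 3.35 ± 0.37, and these 3 genes had between 3 and 5 cytosines in all 4 lists and no value there. Atf4 itself was higher by 1.73 ± 0.23, with 1380.5 and 2191 reads in MF and 2911 and 3172 in pMF. The 2 lowest members were Vldlr at 0.43 ± 0.33 and Sesn2 at 0.01 ± 0.28, neither of which passed the test, and both stood below 0 on shared cytosines. The 5 members that were not tested have no ratio and are named after their values were seen. Trib3 had 1 and 0 listed background cytosines in MF and 330 and 333 in pMF, Chac1 had 0 and 1 against 304 and 263, Atf3 had 0 and 0 against 42 and 55, Pycr1 had 5 and 10 against 184 and 188, and Slc7a3 had 0 and 0 against 6 and 45. The plot of the 23 genes by library shows both pMF libraries above both MF libraries for 21 of them, against 36.6% of all genes tested (29.8% had both below).

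**Figure D3:**
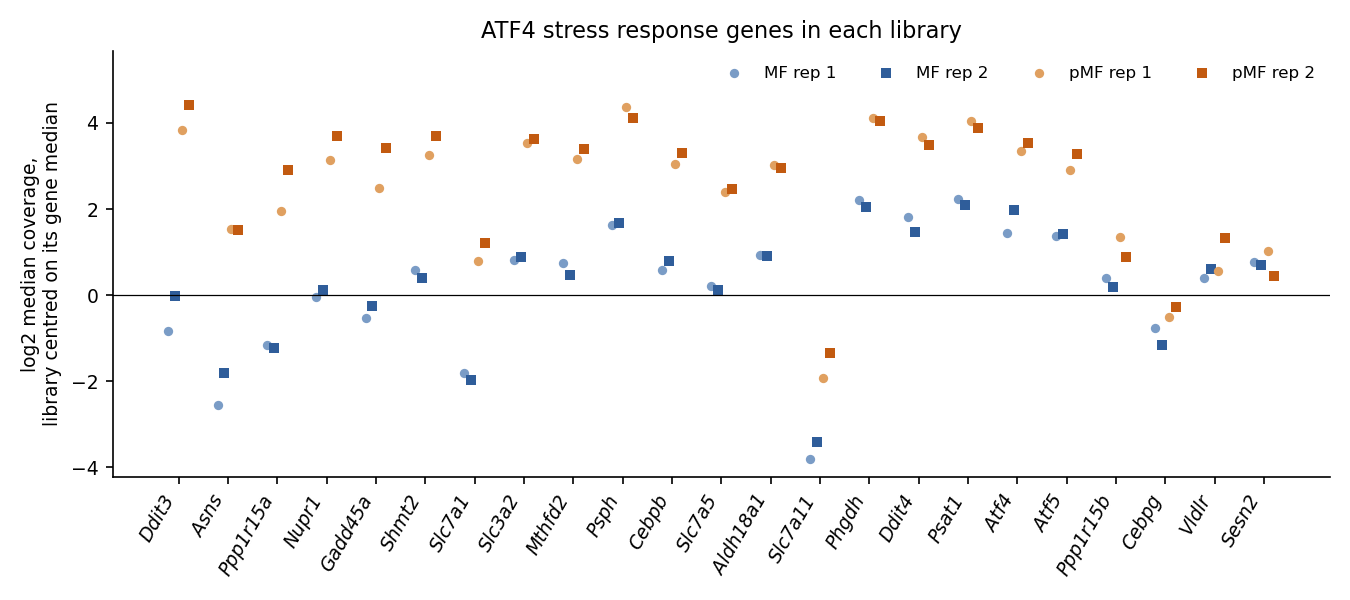
Log2 median coverage over background cytosines, with each library centred on the median of its genes (y axis), for the 23 tested genes of the ATF4 list ordered by log2 ratio (x axis). Points are libraries, blue for MF and orange for pMF; both pMF libraries lie above both MF libraries for 21 genes, and Vldlr and Sesn2 at the right overlap.

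Enzymes of the folate cycle carry one-carbon units. Of the folate cycle and thymidylate list, 20 of 25 genes were tested, with 4 higher, 0 lower (10.2% and 6.45% of all genes) and a median log2 ratio of 0.50. The mitochondrial enzymes Shmt2 (755 and 741 reads in MF, 2744 and 3561 in pMF) and Mthfd2 (845 and 774 in MF, 2560 and 2902 in pMF) were higher by 2.99 ± 0.21 and 2.68 ± 0.19, and both also stand in the ATF4 list. The cytosolic enzyme Shmt1 stood at -0.73 ± 0.74 and did not pass the test. Pck2, a mitochondrial enzyme that makes phosphoenolpyruvate, was among the 10 largest called ratios of genes with 30 or more background cytosines per list, at 3.42 ± 0.19.

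The cytosolic aminoacyl-tRNA synthetases, which load tRNAs with amino acids, are a list chosen after values were seen. Of these 20 genes, 12 were higher and 1 lower (10.2% and 6.45% of all genes), with a median log2 ratio of 1.28 and of 0.95 on shared cytosines. Cars and Yars were highest at 2.93 ± 0.19 and 2.00 ± 0.13, and Aars stood at 1.58 ± 0.13, while Cars stood at 2.02 on 24 shared cytosines. Dars was lower by -0.84 ± 0.16, and Farsa at -0.24 ± 0.39 did not pass the test.

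The respiratory chain makes most of the ATP of a cell from nuclear and mitochondrial genes. Of 74 nuclear genes, 68 were tested, with 29 higher against 10.2% of all genes, 3 lower against 6.45%, and a median log2 ratio of 0.67, and on shared cytosines the median was 0.31 with 35 higher and 13 lower of 62 (33.9% and 40.1% of all genes). Cox7c, a small subunit of complex IV, had 185 and 336.5 reads in MF and 2073.5 and 1952 in pMF, a log2 ratio of 3.93 ± 0.31 and of 4.15 on 45 shared cytosines. Ndufa4 rose by 3.30 ± 0.21, Ndufa1 by 4.84 ± 0.29 and Cox4i1 by 1.07 ± 0.13. Ndufa1 had only 42 and 55 reads in MF, and 2 shared cytosines. Ndufb6 had the highest ratio of the list, 5.36 ± 1.22, but did not pass the test, since its MF libraries were at 278 and 34 reads. Uqcrb and Ndufa11 were lower, at -1.87 ± 0.18 and -1.01 ± 0.16. Atpif1, an inhibitor of the mitochondrial ATP synthase, was also among these 10, at 3.84 ± 0.79 and at 2.30 on shared cytosines.

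Transcripts of the mitochondrial genome, which are read by ribosomes inside mitochondria, were lower in pMF. Of 13, 3 reached the minimum, and all 3 were called lower, where 6.45% of all genes tested were. mt-Cytb had 3083 and 2865 reads in MF and 77 and 118 in pMF, a log2 ratio of -4.04 ± 0.32 and of -6.55 on 45 shared cytosines. mt-Co1 had 10021 and 10815 reads in MF and 641 and 679 in pMF, a log2 ratio of -3.06 ± 0.13. mt-Nd6 was lower by -0.89 ± 0.14. mt-Nd1 had 148 and 142 listed cytosines in MF and 0 and 0 in pMF. Of 15 noncoding RNAs that stay in the nucleus, 1 was tested: Tug1 stood at 0.43 ± 1.11 with no call, and its pMF libraries lay on both sides of its MF libraries, with 56 and 443 reads against 265 and 185 in MF. The other 14 were not tested and 7 of them had no listed background cytosine in any of the 4 libraries. The last 7 are named after their values were seen: Malat1 had 483 and 573 listed background cytosines in MF and 7 and 53 in pMF, Miat 77 and 231 against 0 and 0, Firre 123 and 122 against 0 and 3, Airn 92 and 59 against 0 and 0, Pvt1 78 and 99 against 7 and 62, Neat1 6 and 3 against 0 and 0, and Kcnq1ot1 1 and 1 against 0 and 0. Intronic cytosines made up 2.12% and 2.03% of background cytosines in MF and 0.230% and 0.270% in pMF. By summed background coverage the gap was smaller, with 0.216% and 0.211% in MF and 0.132% and 0.149% in pMF.

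**Figure D4:**
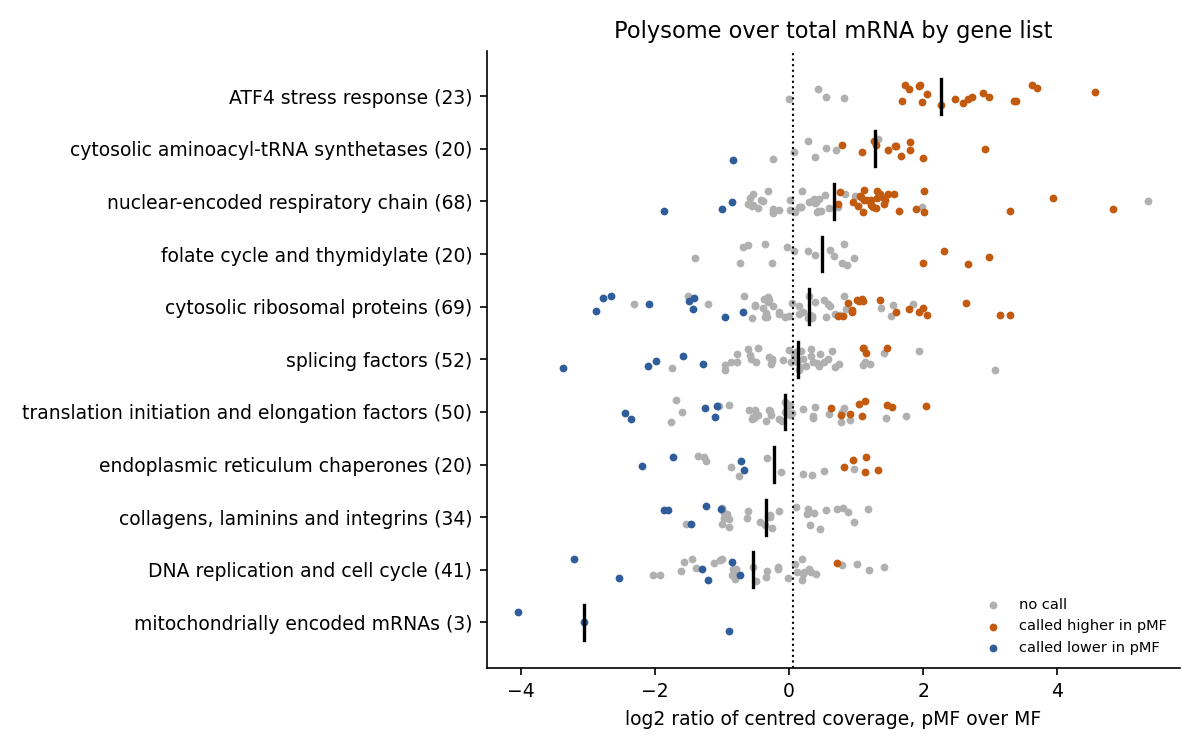
Log2 ratio of centred coverage, pMF over MF (x axis), for the tested genes of 11 lists (y axis, number of genes in brackets). Points are genes coloured by limma's call, black bars are list medians and the dotted line is the median of all 7956 genes (0.06); the ATF4 list lies highest and the mitochondrially encoded mRNAs lowest.

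Genes of the translation machinery moved in both directions. Of 79 cytosolic ribosomal protein genes, 69 were tested, with 18 higher, 9 lower (10.2% and 6.45% of all genes) and a median log2 ratio of 0.29. On shared cytosines this median was -0.31, with 20 higher and 29 lower of 60, where 33.9% and 40.1% of all genes were, so the sign of the median depends on the positions read. Rpl27 and Rpl24 were highest at 3.30 ± 0.35 and 3.14 ± 0.51, Rps25 and Rpl6 lowest at -2.88 ± 0.12 and -2.78 ± 0.25, and Rps6 was lower at -1.43 ± 0.19 but stood at 0.17 with the mean in place of the median coverage, while Rpl3 at 1.55 ± 0.62 did not pass the test. On shared cytosines Rps25, Rpl6 and Rpl3 stood at -1.62, -1.85 and 0.16. These genes have many processed copies in the genome, and uniquely aligned reads can be split or lost between them, so single values are uncertain.

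Of 50 initiation and elongation factors, 9 were higher and 5 lower (10.2% and 6.45% of all genes), with a median of -0.06, while on shared cytosines 11 were higher and 23 lower of 43 (33.9% and 40.1% of all genes), with a median of -0.38. Eif2b4, a subunit of the exchange factor of eIF2, was higher by 2.04 ± 0.19. Eif3e, a subunit of eIF3, and Pabpc1, the cytoplasmic poly(A)-binding protein, were lower by -2.44 ± 0.31 and -2.35 ± 0.22, and Pabpc1 had 4018.5 and 4373 reads in MF and 372 and 503 in pMF. On shared cytosines they stood at -1.62 and -3.23. The elongation factors Eef1a1 and Eef2 stood at 0.02 ± 0.09 and 0.39 ± 0.09 and did not pass the test, nor did Eif1ax at 1.75 ± 1.44.

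Of 41 tested genes of DNA replication and the cell cycle, 1 was higher and 6 lower, where 10.2% and 6.45% of all genes were, and the median log2 ratio was -0.53, with -0.73 on shared cytosines. Ccna2, cyclin A2, had 1700 and 978 reads in MF and 117 and 46 in pMF, a log2 ratio of -3.21 ± 0.60. Pole, the catalytic subunit of DNA polymerase epsilon, was lower by -2.53 ± 0.39, with only 51.5 and 29 reads in pMF. Mcm2 at 0.20 ± 0.16 and Ccnb1 at -0.82 ± 0.50 did not pass the test, though on 31 shared cytosines Ccnb1 stood at -1.83 and was called lower by limma (adjusted p = 4.33e-05). The highest members also did not pass, Cdk6 at 1.41 ± 0.41 and Cdc45 at 1.20 ± 0.85.

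Collagens, laminins and integrins had 0 higher and 5 lower genes of 34 (10.2% and 6.45% of all genes), with a median of -0.34. Col4a1 was lower by -1.01 ± 0.19 and Col4a5 by -1.80 ± 0.20. Itgav was called lower at -1.87 ± 0.21 but stood at 1.19 on 63 shared cytosines, so its direction depends on the positions read. Lamb1 at -0.31 ± 0.15, Itga3 at 1.18 ± 0.91 and Itga5 at 0.97 ± 0.31 did not pass the test. Endoplasmic reticulum chaperones had 5 higher and 4 lower of 20 with a median of -0.23, and splicing factors had 3 higher and 5 lower of 52 with a median of 0.14, which was -0.70 on shared cytosines with 5 higher and 29 lower of 47 (33.9% and 40.1% of all genes). Of the transcripts that the study names, 3 of 27 were higher, near the 10.2% of all genes, and 0 lower, with a median of 0.16, and on shared cytosines, where 33.9% and 40.1% of all genes were higher and lower, 8 of 15 were higher and 5 lower. The study sorts them by positive, negative or neutral correlation of methylation and translation, which these counts do not separate. It took translation from mRNA-seq libraries, while the ratios here are coverage at listed cytosines of BS-seq libraries. Of its positive transcripts, Hdgf stood at -0.55 and Surf4 at 0.50 with no call. On shared cytosines they stood at -0.67 and 0.65, where limma called Hdgf lower (adjusted p = 0.000687) and Surf4 higher (adjusted p = 0.000688).

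Against 10.2% of all genes called higher and 6.45% called lower, immediate early genes had 2 higher and 0 lower of 15 with a median of 0.63, noncoding RNAs that host snoRNAs had 2 higher and 0 lower of 7 with a median of 1.07, and the m5C writers, erasers and readers had 1 higher and 0 lower of 9 with a median of 0.41. On shared cytosines, 6 immediate early genes had a median of 0.06 with 2 higher and 2 lower, and 5 of the m5C genes had -0.33 with 2 higher and 3 lower, where 33.9% and 40.1% of all genes were higher and lower. Of the NSC markers, 2 of 14 were higher and 2 lower, with a median of -0.05. The transcription factors Pax6 and Nr2e1 were higher by 1.90 ± 0.34 and 1.35 ± 0.29, and the receptors Notch1 and Egfr were lower by -1.92 ± 0.27 and -1.55 ± 0.26, with -0.78 for Notch1 on 100 shared cytosines. Nes, which encodes nestin, stood at -0.15 ± 0.28 with no call but at -1.46 on 257 shared cytosines, where limma called it lower (adjusted p = 0.000106).

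Some of the largest ratios rest on few shared cytosines. Among genes described above, Ndufa1, Asns, Rpl27, Rpl24, Pax6, Nr2e1, Pole and Egfr had between 0 and 4 shared cytosines and no value there. Pigu had 161 and 37 reads in MF and 1010 and 1045 in pMF, and its ratio ran from 3.53 to 5.79 without 1 library. Of the 10 largest called ratios among genes with 30 or more background cytosines per list, Pigu (4.66 ± 0.82) and Bcl7c (3.42 ± 0.34) had only 4 and 0 cytosines in all 4 lists, while Eif4a-ps4 (3.02 ± 0.29), annotated as a processed pseudogene whose reads may not be told apart from those of its parent gene, had 10. Of the 10 smallest, Srrm2, which encodes a spliceosome protein of nuclear speckles, had 940 and 949 reads in MF and 43 and 54 in pMF, with a log2 ratio of -3.37 ± 0.30 and the same value, -3.36, on 10 shared cytosines. Cp, ceruloplasmin, stood at -3.62 ± 0.39, with 38 and 64 reads in pMF, and at -2.79 on 24 shared cytosines. Gm10241, annotated as a processed pseudogene, stood at -3.78 ± 0.17. Mrpl13 (-3.54 ± 0.27), Gmfb (-3.47 ± 0.56), Crk (-3.27 ± 0.29), Rgs19 (-3.26 ± 0.32) and Scg3 (-3.26 ± 0.33) had between 2 and 9 shared cytosines and no value there.

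The ratio moved with the length of the coding sequence. Of the 7956 genes, of which 10.2% were higher and 6.45% lower, 7786 had an annotated coding length. The median log2 ratio was 0.29 for 861 genes of 301 to 600 bases, of which 150 were higher and 60 lower, and 0.27 for 2266 genes of 601 to 1200 bases. It was -0.27 for 1317 genes of 2401 to 4800 bases and -0.59 for 373 genes above 4800 bases, of which 8 were higher and 55 lower. The shortest group, 137 genes of up to 300 bases, had a median of 0.09. On shared cytosines the medians were -0.10, 0.08, -0.33 and -0.36 for the same 4 groups, so short genes stood lower there. The shares of the libraries also differed by region: 3′ UTRs held 14.9% and 14.9% of the summed background coverage in MF and 18.6% and 18.6% in pMF, and coding sequence 80.2% and 80.0% in MF and 77.2% and 77.2% in pMF.

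**Figure D5:**
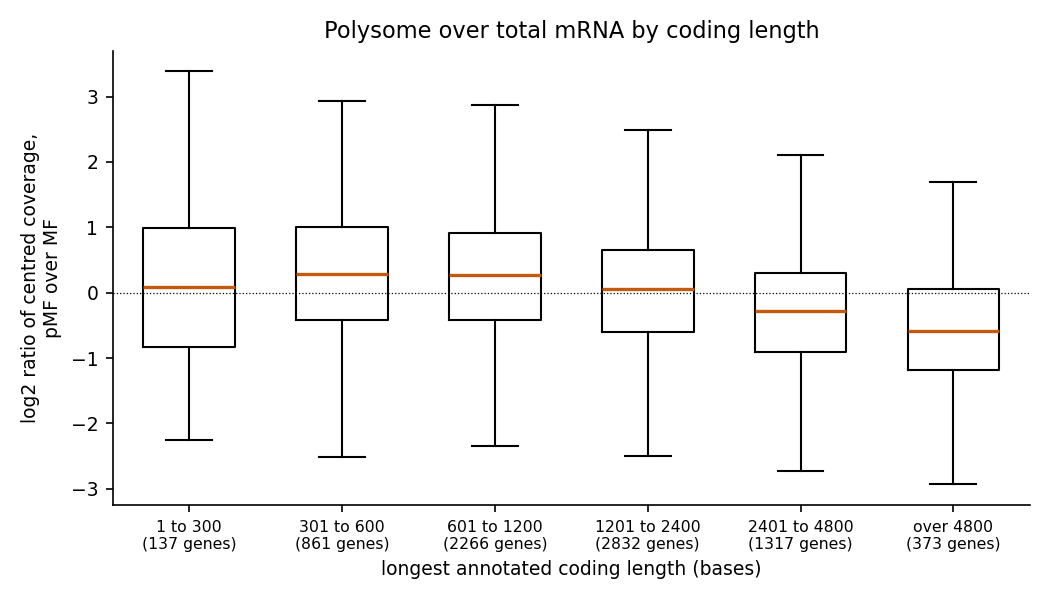
Log2 ratio of centred coverage, pMF over MF (y axis), by the longest annotated coding length of the gene (x axis, bases, with the number of genes). Boxes span the quartiles, orange lines are medians and whiskers reach 1.5 times the box height at most; the median falls from 0.29 at 301 to 600 bases to -0.59 above 4800 bases.

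At low folate, the polysome and total libraries (pLF and LF, 2 each) were read the same way. Over 131 isolated sites that 20 or more reads covered in each of the 8 libraries, the median level was 9.64% and 9.06% in MF, 17.8% and 16.8% in pMF, 9.19% and 9.29% in LF, and 17.1% and 17.1% in pLF. The limma test of the difference between the folate levels called 1 of these sites (0.763%), and 11 at an unadjusted p under 0.05. The Wdr48 and Col4a6 sites were among the 11 but did not pass after adjustment. Wdr48 stood at 33.1% and 30.4% in LF and 36.8% and 44.3% in pLF. Col4a6 stood at 21.2% and 14.1% in LF and 27.3% and 20.8% in pLF. Thbs3 stood at 13.9% and 16.4% in LF and 44.2% and 44.5% in pLF. For genes, the same test called 1 of 7338 (0.0136%), and 389 at an unadjusted p under 0.05. The ATF4 list had a median log2 ratio of 2.31 at low folate over 22 genes and of 2.37 at mid folate over the same genes, and the respiratory chain had 0.75 and 0.59 over 67 genes. Other lists and genes stood further apart. The folate cycle list had 0.08 at low and 0.61 at mid folate over 19 genes, and the aminoacyl-tRNA synthetases had 0.72 and 1.28 over 20 genes. Of genes named above, Pigu had -0.57 at low and 4.66 at mid folate, Mrpl13 0.99 and -3.54, Gmfb -0.73 and -3.47, and Ccna2 -0.98 and -3.21, and for none of these 4 did the difference pass limma's test.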

How the data were processed

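RNA BS-seq lists of 4 libraries (MF and pMF, 2 replicates each) were analysed, with 4 libraries of low folate (LF, pLF) beside them. Reads were trimmed by fastp, aligned by meRanGh to the mm10 genome and, where the alignment was unique, passed to meRanCall for calling, per the methods of the study. The deposited coverage and methylated reads are counts of reads at each cytosine with no normalization, and the deposited rate is a fraction, the methylated reads over methylated and converted reads (0 mismatches on recomputing). Summed coverage was 2454062116 and 2857966129 in MF and 1220452123 and 1237535967 in pMF. At a coverage of 20, 1 read moves a level by 5 percentage points, and intervals cover counting error only.

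Cytosines listed with a variant base were left out. Site calls used a coverage of 20, a level of 0.1, 6 methylated reads and a window of 25 bases. Gene values used background cytosines (level under 0.05, at least 10 per list) that the lists assign to 1 gene, on the log2 scale, with each library centred on its gene median. Features and coding lengths were taken from GENCODE vM21. Tests ran in scipy 1.17.1 and limma 3.58.1 (eBayes with trend for genes; log odds with a pseudocount of 0.5 for sites) under Python 3.11.15 and R 4.3.3, with Benjamini-Hochberg adjustment, a threshold of 0.05 and the seed 20221123, and were tested on simulated data. Figures used matplotlib 3.10.9.

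The named sites are the 10 largest rises and up to 5 falls among called isolated sites whose replicates do not overlap (no fall was called), and sites in transcripts the study names. The named genes are the 10 largest and 10 smallest called ratios with at least 30 cytosines per list, and the first 2, highest 2 and lowest 2 members of the lists described gene by gene, of which 1 is not reported here. Members and lists were chosen with earlier results of these data known. The alternatives are other coverage, level and read minimums, other choices of sites and positions, thinning, other tests, centrings and means, the replicate block, and leaving out each replicate. Sites chosen in MF alone, and the split of the sites chosen in LF by sequence and region, were added after seeing the data. The 3C, signal/noise and structure filters of the study were not repeated, and libraries of high folate were not used here.

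Equal replicate numbers did not deviate together (r = 0.02 over 7956 genes and 0.02 over 143 isolated sites), so the numbers were not taken to pair the libraries. A shared culture is not excluded by this.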

Additional observations from a re-analysis of the deposited data

Results flagged for a closer look

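These 2 results differed between mid and low folate by limma's test of the difference itself, which compared the log2 ratios of pMF over MF and of pLF over LF.

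The gene S100a16, which encodes a calcium-binding protein, had a log2 ratio of 2.51 at mid folate and of -3.11 at low folate, a difference of 5.61 ± 0.46 (SE, 2 libraries per group, limma adjusted p = 0.0376 over 7338 genes). Read only at cytosines that all 8 lists hold, its log2 ratios were -1.13 and -0.85, and the difference was -0.28 with an adjusted p of 0.979, so the direction at mid folate depends on the positions read. The gene Mrpl13 had the next smallest p, with a difference of -4.56 and an adjusted p of 0.0734.

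The 3′ UTR site of Fam131a on chromosome 16 at position 20701948 (+ strand) stood at 7.55% and 7.04% in MF and at 22.02% and 26.5% in pMF, but at 17.2% and 21.9% in LF and at 14.5% and 15.9% in pLF. The log2 odds ratio of pMF over MF exceeded that of pLF over LF by 2.35 (limma adjusted p = 0.0489 over 131 isolated sites). The MF libraries had 53 and 71 reads there and the LF libraries 58 and 73. The site was below 10% in both MF libraries and entered the test only through pMF, so a rise at mid folate was favoured by the choice of sites, with no such condition on LF or pLF, and the p gives no support for a difference.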

How the results depend on the processing

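The median rise at isolated sites kept its direction under the alternatives run, and the median of the ATF4 list was 1.67 on shared cytosines, 2.07 with the 75th percentile and 2.07 with quantile normalization, while counts of calls moved. Of 143 isolated sites, 102 were higher, against 35 of 48 with a level of at least 0.2, 27 of 55 chosen in LF, 25 of 53 chosen in MF alone (an alternative added after seeing the data), 56 of 107 with a pooled level of 0.1 and 65 of 143 by limma. The sites chosen in pLF held 1 that was lower, and without 1 replicate the counts were 84 to 94 higher and 0 to 1 lower. Of 240 clustered sites, 75 were higher, against 37 of 131 with the level of 0.2, 27 of 154 chosen in LF, 38 of 197 chosen in MF alone, 1 of 2 on the study's list and 33 of 240 by limma. Those lower numbered 36, against 65 of 375 with a coverage of 10, 16 of 131 with a level of 0.2, 0 of 2 on the study's list and 10 of 240 by limma. Genes numbered 1697 higher and 1378 lower with mean coverage, 1035 lower on shared cytosines and 513 higher without the trend, and ranged from 0 to 677 higher and from 0 to 722 lower without 1 replicate, where the lone library is assumed to vary like the other group. The share of calls that were higher was 61.2%, and 45.6% with the 75th percentile, 50.5% with quantile normalization and 45.8% on shared cytosines. The difference between folate levels called 1 gene, and 0 on cytosines in all 8 lists (37 at an unadjusted p under 0.05).

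The replicate block left 0 genes higher and 0 lower by limma (1500 and 1088 at an unadjusted p under 0.05), 35 isolated sites higher, 23 clustered sites higher and 6 lower, and 0 genes that differed between folate levels (325 unadjusted). Same-numbered libraries did not deviate together, but this cannot exclude that they share a culture, so the block is kept as an alternative.

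Of the named genes that were followed through the alternatives, 11 changed sign under an alternative. Tug1 was not followed, and its pMF libraries lay on both sides of its MF libraries. Rps6 stood at 0.17 with mean coverage. Eef1a1 stood at -0.24 on shared cytosines, -0.17 with the 75th percentile, -0.47 with quantile normalization and between -0.0560 and 0.0911 without 1 replicate. Eif1ax stood at -0.39 on shared cytosines and between -0.25 and 3.75 without 1 replicate, and Itga3 between -0.0657 and 2.43. Itgav stood at 0.13 with mean coverage and 1.19 on shared cytosines. The Sesn2 log2 ratio was -0.14, -0.55, -0.00931, -0.18 and -0.13 with mean coverage, shared cytosines, 30 cytosines per list, the 75th percentile and quantile normalization, and between -0.29 and 0.30 without 1 replicate. Vldlr stood at -0.0776 and Mcm2 at -0.0426 on shared cytosines, and Mcm2 at -0.12 with quantile normalization. Shmt1 stood at 0.11 with mean coverage and between -1.72 and 0.27 without 1 replicate, Nes between -0.50 and 0.21 and Farsa between -0.61 and 0.12. The 3′ UTR site of Ptprn ranged from -7.24 to 10.3 percentage points. The causes were not tested. Depth limits sites with few pMF reads and genes with few cytosines in all lists.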
